A study of Homo sapiens with 8 samples.

Results

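The 42 genes described here build the machinery that copies DNA and control entry into S phase: origin licensing and firing factors, replicative polymerases, fork proteins, enzymes of nucleotide supply, cyclin E and E2F genes, and factors that package new DNA. They were chosen by name, for their function, with earlier results of these data known. All 42 had a row among the 23368 genes of the deposited expression table. Before S phase, the origin recognition complex with CDC6 and CDT1 loads the MCM helicase onto DNA, a step called licensing. CDC45 and the GINS complex then turn the loaded helicase into an active one, and primase, polymerases, clamp and ligase copy both strands. Cyclin E with CDK2 releases E2F factors from the RB protein, and E2F factors drive transcription of many of these genes late in G1, so their mRNA is used as a sign of cells that are preparing for or passing through S phase.

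The cells were H2030-BrM, a brain metastatic derivative of the human lung adenocarcinoma line H2030. All of them carried pLVX-EGFP-Rpl10a-IRES-hygro, a vector for an EGFP-tagged ribosomal protein, so that ribosome-bound mRNA could be pulled down with antibodies to EGFP (translating ribosome affinity purification) and sequenced. Cells with an shRNA against L1CAM (shL1CAM), a neuronal and tumour cell adhesion molecule, and cells with a control shRNA against luciferase (shControl) were each taken after 48 h on organotypic slices of mouse brain, or at 0 h from a petri dish. Each of the 4 groups had 2 libraries. Slices were kept in DMEM with complete HBSS, 5% FBS and 1 mM glutamine, and dishes in RPMI 1640 with 10% FBS and 2 mM glutamine, so substrate, medium, serum and time differ together between slice and dish and cannot be told apart. The labels name 1 derivative line, and nothing states that replicates were separate cultures.

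The recovered reads per library ranged from 13486212 to 16734651, and a member had between 240 and 14128 reads in a library. L1CAM itself had 74.7 and 65.4 normalized counts in shL1CAM cells against 451 and 438 in shControl cells on slice, and 126 and 88.3 against 482 and 440 in the dish. Of 6 epithelial markers, the keratins KRT8 and KRT18 were high in every library (3460 to 6002 normalized counts) and EPCAM was at 78.2 to 169, but CDH1 was at 21.0 to 33.2, KRT7 at 5.35 to 14.1 and KRT19 at or under 1.00. The lung lineage markers NKX2-1, NAPSA, SFTPB and SFTPC stayed at or under 16.5. Of the brain cell markers, some defining ones were near 0: S100B, MOG, OLIG2 and P2RY12 were at 0 in all 8 libraries and GFAP and AQP4 did not exceed 1.00. Summed over 6 oligodendrocyte markers the level was 1008 to 2043 on slice and 882 to 1309 in the dish, most of it from MBP, which the cells had in the dish as well. Over the 8 neuron markers it was 7269 to 8018 on slice and 6125 to 6524 in the dish, most of it from TUBB3 and MAP2. The neuron marker SLC17A7 was at 84.99 and 75.97 in shControl cells on slice, against 18.59 and 40.55 in the dish. In shL1CAM cells it was at 28.6 and 35.7 on slice and did not exceed 28.4 in the dish. GAD1 (63.03 to 86.86 on slice, 111.8 to 147.5 in the dish) and RBFOX3 (1.91 to 14.28 and 13.2 to 23.08) were lower on slice with either shRNA. The source of these reads was not tested. The 7 astrocyte markers summed to 1095 to 1535 on slice and 1836 to 2405 in the dish, most of it from GJA1 (978 to 2054) and SLC1A3 (117 to 347). The 8 microglia and macrophage markers summed to 527 to 826 on slice and 483 to 861 in the dish, most of it from CD68 (467 to 854), and the 6 endothelial and mural markers to 40.1 to 51.4 on slice and 45.8 to 72.3 in the dish. The part of these levels in the results was not tested. Replicate 2 of shL1CAM on slice stood apart from the other libraries. Between the 2 replicates, log2 levels of the tested genes differed with an SD of 0.637 in that group, against 0.218 to 0.303 in the other groups, and in that library the 10% of tested genes with the shortest transcripts lay 0.50 above and the longest 10% 0.68 below their means over all libraries (log2, medians). Counts of genes called, or medians, are also given without it. Such a fit leaves its group with 1 library, which is assumed to vary like the others. Replicate 2 of shL1CAM on slice has no part in the slice to dish fold changes of shControl cells. Leaving it out there changes only the spread used in the test.

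In cells on brain slice, ribosome-bound mRNA of nearly every step of DNA replication was lower than in the dish, with either shRNA. In shL1CAM cells 26 of the 42 genes fell and 0 rose, against a background of 11.2% of the 13010 tested genes lower and 10.1% higher. In shControl cells 34 fell and 0 rose, where 8.03% of tested genes were lower and 6.8% higher. The members' median log2 fold change was -0.69 in shL1CAM cells (range -1.53 to 0.48) and -0.80 in shControl cells (range -1.50 to -0.00), while the median over all tested genes was -0.00 and 0.01. Both slice libraries lay below both dish libraries for 36 of 42 members in shL1CAM cells (28.7% of tested genes) and for 40 of 42 in shControl cells (37.3% of tested genes). Calls are from limma on log2(normalized count + 1), with Benjamini-Hochberg adjusted p under 0.05 over all tested genes, and each log2 fold change is on that scale.

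Summed over the 42 genes, the members made up 0.382% and 0.371% of the signal of the shL1CAM libraries and 0.317% and 0.308% of the shControl libraries on slice. In the dish they made up 0.598% and 0.636% in shL1CAM cells and 0.568% and 0.526% in shControl cells. The slice and dish values did not overlap. In bulk ribosome-bound RNA of this kind, fewer cells in S phase, less of each mRNA per cell and less of it on ribosomes cannot be told apart.

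Without replicate 2 of shL1CAM on slice, 36 members were lower in shL1CAM cells (19.2% of tested genes were lower) and 39 in shControl cells (23.0% of tested genes). In shControl cells most calls were lost when any of the 4 shControl libraries was left out, among the members and among all tested genes alike. Fewer were lost when a library of shL1CAM in the dish was left out. In shL1CAM cells many calls were lost without replicate 1 or 2 of shL1CAM in the dish, again among the members and among all tested genes. A fit of the 4 shL1CAM libraries alone called 8 members (ORC1, CDC6, MCM2, PRIM1, POLA1, POLE, RRM1 and UHRF1), where 3.92% of tested genes were called in either direction. It called none of the origin firing genes, the clamp and fork genes or the G1/S regulators. The members' median moved less, between -0.73 and -0.62 in shL1CAM cells and between -0.90 and -0.74 in shControl cells over the 8 fits with 1 library left out.

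**Figure D1:**
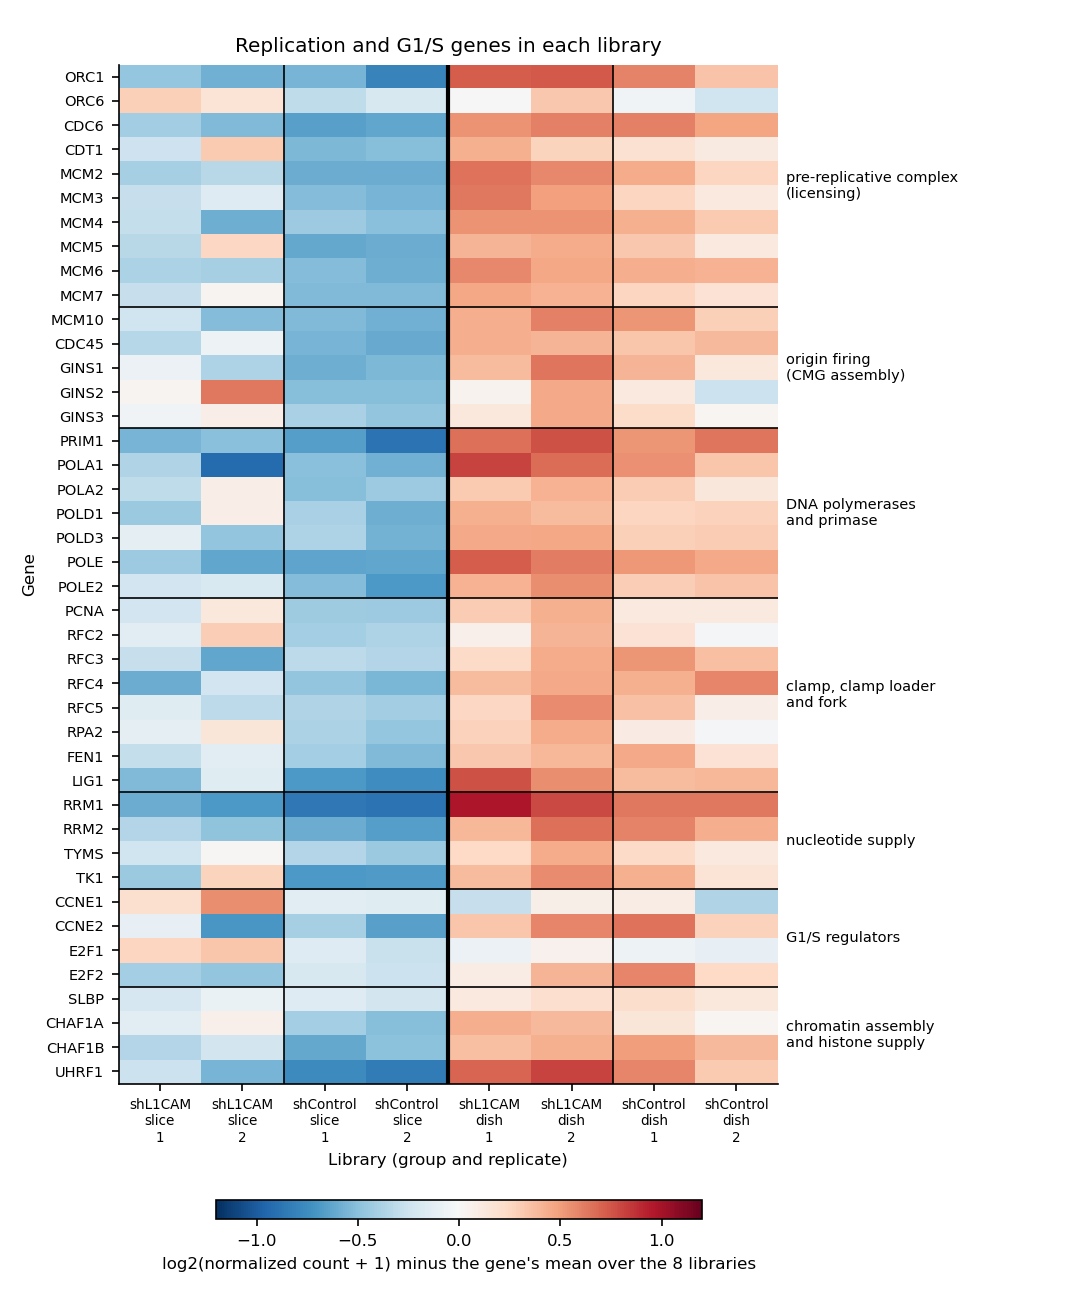
Level of each of the 42 genes (rows, grouped by step of replication) in each of the 8 libraries (columns, slice left of dish and shL1CAM left of shControl), as log2(normalized count + 1) minus the gene's mean over the libraries. Most rows are blue in the 4 slice columns and red in the 4 dish columns, and ORC6, CCNE1 and E2F1 are among the exceptions.

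The start-proximal sequences of these genes are shown because many of them share a motif with the letters that E2F factors are known to bind. RefSeq promoters (GRCh38.p14, 250 bases before to 50 bases after the annotated start) matched 37 of the 42 members by symbol, some with several starts, while MCM4, MCM5, POLD3, RPA2 and CCNE2 had no match. The letters searched, on both strands, were TTTGGCGC, TTTCGCGC, TTTCCCGC and TTTGCCGC, where matches to different words may overlap. At least 1 promoter held a match in 20 of the 37 matched members (54.1%), against 2 of 17 genes of G2 and mitosis (11.8%), 6.76% of 9137 matched tested genes and 3.99% of 27305 genes with a promoter in all. The members with a match were CDC6, CDT1, MCM2, MCM3, MCM6, MCM7, GINS1, GINS2, GINS3, POLA1, POLA2, POLE, POLE2, PCNA, RFC3, LIG1, TYMS, E2F1, E2F2 and UHRF1. The CHR letters TTTGAA, known from promoters of genes of G2 and mitosis, ran the other way, with 1 of 37 members (2.7%), 12 of 17 G2 and mitosis genes (70.6%) and 13.6% of tested genes. CCAAT was in 56.8% of members and 43.5% of tested genes, and the GC box GGGCGG in 75.7% and 78.3%. E2F factors were already known to drive many of the members, so these shares are a description and not a test.

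A set of 4 promoters is printed as the 200 bases before the start, 5′ to 3′ on the gene's strand, in lower case with matched E2F letters in capitals. MCM6 (chr2:135876444-135876643, minus strand) and POLE (chr12:132687343-132687542, minus strand) hold matches and fell on slice. E2F1 (chr20:33686386-33686585, minus strand) holds matches and was near its dish level in shControl cells. RRM1 (chr11:4094485-4094684, plus strand) had the largest fall of all members and has no match in this window.
MCM6: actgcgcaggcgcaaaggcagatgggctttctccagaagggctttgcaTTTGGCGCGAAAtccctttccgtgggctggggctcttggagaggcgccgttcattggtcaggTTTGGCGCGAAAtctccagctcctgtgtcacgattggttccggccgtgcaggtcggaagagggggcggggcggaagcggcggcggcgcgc
POLE: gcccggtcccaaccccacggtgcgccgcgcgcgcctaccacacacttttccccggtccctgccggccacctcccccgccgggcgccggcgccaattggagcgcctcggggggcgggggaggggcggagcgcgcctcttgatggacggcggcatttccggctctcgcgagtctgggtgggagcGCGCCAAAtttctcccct
E2F1: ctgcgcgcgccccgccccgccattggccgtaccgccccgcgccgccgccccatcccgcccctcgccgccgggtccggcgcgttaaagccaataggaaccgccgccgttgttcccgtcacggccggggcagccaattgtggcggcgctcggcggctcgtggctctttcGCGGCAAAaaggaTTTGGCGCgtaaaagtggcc
RRM1: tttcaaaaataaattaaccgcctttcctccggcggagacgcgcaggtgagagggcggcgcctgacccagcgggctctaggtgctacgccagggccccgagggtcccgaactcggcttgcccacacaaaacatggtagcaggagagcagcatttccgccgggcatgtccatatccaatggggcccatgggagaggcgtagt
In MCM6 the same palindrome-like run of capitals occurs at 2 places, each matched on both strands. The match in POLE begins 18 bases before the start, and the first of the 2 in E2F1 33 bases before it. For the 20 members with a match, the median slice over dish log2 fold change in shControl cells was -0.76 (range -1.25 to -0.13). For the 17 without a match it was -0.94 (range -1.50 to -0.00). The ranges overlapped, and the difference was not tested.

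Licensing genes fell with few exceptions. Of the 10, 7 fell in shL1CAM cells and 9 in shControl cells, with medians of -0.84 and -0.83. Without replicate 2 of shL1CAM on slice the medians were -0.83 and -0.83. CDC6, the ATPase that helps load the helicase, had 1432 and 1326 normalized counts in shL1CAM cells and 1219 and 1240 in shControl cells on slice, against 2774 and 2913 in shL1CAM cells and 2913 and 2663 in shControl cells in the dish. All 4 slice libraries lay under all 4 dish libraries. Its log2 fold change was -1.04 ± 0.13 in shL1CAM cells and -1.18 ± 0.13 in shControl cells (± SE, limma, Benjamini-Hochberg adjusted p = 0.00273 and 0.00253).

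The MCM2 to MCM7 subunits, which form the ring of the replicative helicase, all fell in shControl cells, with log2 fold changes of -0.98 (MCM6) to -0.73 (MCM3). MCM6 had 1932 and 1908 normalized counts in shL1CAM cells and 1755 and 1682 in shControl cells on slice, against 3751 and 3470 in shL1CAM cells and 3405 and 3366 in shControl cells in the dish. Its replicates lay close together and the slice and dish groups did not overlap (log2 fold change -0.91 ± 0.13 and -0.98 ± 0.13, limma adjusted p = 0.00337 and 0.00396). In shL1CAM cells the subunits spread from -0.98 (MCM2) to -0.47 (MCM5), and MCM5 did not pass the threshold there (limma adjusted p = 0.113). In replicate 2 of shL1CAM on slice MCM5 had 2300 normalized counts, against 1534 in replicate 1. Per kb of the main annotated transcript, MCM7 had the highest level of the ring's subunits in all groups, at 1923 and 1438 normalized counts per kb in shL1CAM and shControl cells on slice and 2826 and 2417 in the dish. MCM5 had the lowest level per kb in 3 of the groups (361 in shControl cells on slice, 736 in shL1CAM and 640 in shControl cells in the dish), and MCM6 in shL1CAM cells on slice (514, with MCM2 also at 514).

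The origin recognition complex, which marks origins, had unlike values in ORC1 and ORC6. Here and for the other complexes the difference between subunits was not tested. ORC1 had 398 and 368 normalized counts in shL1CAM cells and 373 and 315 in shControl cells on slice, against 911 and 915 in shL1CAM cells and 830 and 696 in shControl cells in the dish. No slice library reached a dish library, and the log2 fold change was -1.25 ± 0.16 in shL1CAM cells and -1.15 ± 0.16 in shControl cells (limma adjusted p = 0.00279 and 0.00526). ORC6 had 1503 and 1385 normalized counts in shL1CAM cells and 996 and 1082 in shControl cells on slice, against 1230 and 1544 in shL1CAM cells and 1200 and 1042 in shControl cells in the dish. Here slice and dish overlapped with either shRNA, and the log2 fold change was 0.07 ± 0.16 and -0.11 ± 0.16 (limma adjusted p = 0.792 and 0.693). CDT1, the partner of CDC6 in loading, fell in shControl cells by 0.67 and was at -0.31 in shL1CAM cells, where the replicates on slice were 749 and 1109.

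Origin firing genes fell in part. In shL1CAM cells and in shControl cells 3 of 5 passed the test, with medians of -0.63 and -0.83. MCM10, which helps activate the loaded helicase, had 537 and 440 normalized counts in shL1CAM cells and 438 and 423 in shControl cells on slice, against 857 and 959 in shL1CAM cells and 915 and 770 in shControl cells in the dish. CDC45, part of the active helicase, had 672 and 816 in shL1CAM cells and 579 and 562 in shControl cells on slice, against 1159 and 1137 in shL1CAM cells and 1077 and 1120 in shControl cells in the dish. For both genes every slice library was below every dish library, with log2 fold changes of -0.90 ± 0.17 and -0.96 ± 0.17 for MCM10 and -0.63 ± 0.15 and -0.95 ± 0.15 for CDC45 in shL1CAM and shControl cells (limma adjusted p from 0.00681 to 0.0194).

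The GINS genes, whose products sit on the helicase as 1 complex, had a range of values. GINS1 had 724 and 585 normalized counts in shL1CAM cells and 504 and 521 in shControl cells on slice, against 987 and 1186 in shL1CAM cells and 1006 and 830 in shControl cells in the dish, and fell in both (log2 fold change -0.73 and -0.83, limma adjusted p = 0.0215 and 0.0182). GINS2 had 1097 and 1659 normalized counts in shL1CAM cells and 754 and 751 in shControl cells on slice, against 1107 and 1468 in shL1CAM cells and 1165 and 895 in shControl cells in the dish. Its shL1CAM libraries overlapped between slice and dish and the replicates in that group differed widely. GINS2 did not pass the test with either shRNA (0.08 ± 0.23 and -0.44 ± 0.23), nor did GINS3 (-0.27 ± 0.17 and -0.55 ± 0.17). Replicate 2 of shL1CAM on slice is not part of the shControl fold changes of GINS2 and GINS3. Leaving it out changes only the spread used to test them.

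All 7 polymerase and primase genes fell in shControl cells and 5 of 7 in shL1CAM cells, with medians of -0.92 and -0.75. Without replicate 2 of shL1CAM on slice the medians were -0.92 in shControl cells and -0.85 in shL1CAM cells. PRIM1, the catalytic subunit of primase, had 358 and 372 normalized counts in shL1CAM cells and 333 and 284 in shControl cells on slice, against 835 and 893 in shL1CAM cells and 761 and 822 in shControl cells in the dish. POLE, the catalytic subunit of the leading-strand polymerase, had 775 and 679 in shL1CAM cells and 679 and 684 in shControl cells on slice, against 1740 and 1611 in shL1CAM cells and 1504 and 1438 in shControl cells in the dish. In both genes the highest slice library was well under the lowest dish library. PRIM1 fell by 1.24 ± 0.15 in shL1CAM cells and by 1.36 ± 0.15 in shControl cells, and POLE by 1.21 ± 0.14 and 1.11 ± 0.14 (log2, ± SE, limma adjusted p from 0.00195 to 0.00373).

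POLE2, the second subunit of the same polymerase, had 510 and 528 normalized counts in shL1CAM cells and 417 and 371 in shControl cells on slice, against 802 and 882 in shL1CAM cells and 737 and 759 in shControl cells in the dish. It fell by 0.70 and 0.92 on the log2 scale (limma adjusted p = 0.0135 and 0.00682). POLA1, the catalytic subunit of the polymerase that extends primers, fell by 1.38 in shL1CAM cells and by 0.98 in shControl cells. In shL1CAM cells on slice POLA1 had 446 and 301 normalized counts, the lower value in the replicate in which long transcripts were low. POLA2, POLD1 and POLD3, subunits of the polymerases that extend primers and copy the lagging strand, had log2 fold changes of -0.47, -0.59 and -0.75 in shL1CAM cells and -0.69, -0.76 and -0.77 in shControl cells, and in shL1CAM cells POLA2 and POLD1 did not pass the test.

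At the clamp and fork, 5 of 8 genes fell in shL1CAM cells and 6 of 8 in shControl cells. The medians were -0.60 and -0.69, and also -0.60 and -0.69 without replicate 2 of shL1CAM on slice. LIG1, the ligase that seals Okazaki fragments, had 554 and 723 normalized counts in shL1CAM cells and 496 and 477 in shControl cells on slice, against 1358 and 1176 in shL1CAM cells and 1038 and 1052 in shControl cells in the dish. FEN1, the flap endonuclease that trims these fragments, had 1197 and 1334 in shL1CAM cells and 1105 and 1013 in shControl cells on slice, against 1836 and 1922 in shL1CAM cells and 2007 and 1650 in shControl cells in the dish. Both were lower in every slice library than in any dish library, with log2 fold changes of -0.996 ± 0.17 and -1.10 ± 0.17 for LIG1 and -0.57 ± 0.15 and -0.78 ± 0.15 for FEN1 in shL1CAM and shControl cells (limma adjusted p from 0.00628 to 0.0296).

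Among the small subunits of the clamp loader, which places PCNA on DNA, RFC4 had the lowest log2 fold change. RFC4 had 701 and 907 normalized counts in shL1CAM cells and 763 and 725 in shControl cells on slice, against 1385 and 1454 in shL1CAM cells and 1430 and 1592 in shControl cells in the dish, with no overlap (log2 fold change -0.83 and -1.02, limma adjusted p = 0.0108 and 0.00705). RFC3 and RFC5 also fell with either shRNA, by 0.61 to 0.79. RFC2 did not pass the test, at -0.15 ± 0.19 in shL1CAM cells and -0.47 ± 0.19 in shControl cells. PCNA, the sliding clamp itself, was at -0.41 in shL1CAM cells, short of the threshold (limma adjusted p = 0.0865), and fell by 0.54 in shControl cells (limma adjusted p = 0.0459). RPA2, a subunit of the complex that coats single-stranded DNA, had 1082 and 1285 normalized counts in shL1CAM cells and 893 and 845 in shControl cells on slice, against 1410 and 1582 in shL1CAM cells and 1242 and 1153 in shControl cells in the dish. Its groups did not overlap within either shRNA, and neither difference passed the test (-0.34 ± 0.15 and -0.46 ± 0.15, limma adjusted p = 0.133 and 0.0708).

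Nucleotide supply held the largest single fall. All 4 genes fell in shControl cells and 2 of 4 in shL1CAM cells, with medians of -1.06 and -0.75. Without replicate 2 of shL1CAM on slice the medians were -1.06 in shControl cells and -0.90 in shL1CAM cells. RRM1, the large subunit of ribonucleotide reductase, which makes deoxyribonucleotides, had 1991 and 1870 normalized counts in shL1CAM cells and 1668 and 1631 in shControl cells on slice, against 5920 and 5228 in shL1CAM cells and 4676 and 4680 in shControl cells in the dish. The slice level was 2.88-fold lower in shL1CAM cells and 2.83-fold lower in shControl cells, the replicates were tight, and the adjusted p was 0.00105 and 0.00191 (limma). RRM2, the small subunit, whose level is known to follow the cell cycle, had 7023 and 6425 normalized counts in shL1CAM cells and 5939 and 5658 in shControl cells on slice, against 11773 and 14179 in shL1CAM cells and 13536 and 12116 in shControl cells in the dish. It was 1.92-fold and 2.21-fold lower on slice, again without overlap (limma adjusted p = 0.0049 and 0.00396).

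TK1, the thymidine kinase of cycling cells, had 972 and 1593 normalized counts in shL1CAM cells and 823 and 826 in shControl cells on slice, against 1723 and 1968 in shL1CAM cells and 1780 and 1485 in shControl cells in the dish. The shControl replicates on slice were nearly equal, while those of shL1CAM lay far apart. TK1 fell by 0.98 ± 0.23 in shControl cells and was at -0.57 ± 0.23 in shL1CAM cells, short of the threshold (limma adjusted p = 0.103 in shL1CAM and 0.0237 in shControl cells). TYMS, thymidylate synthase, was at -0.46 in shL1CAM cells (limma adjusted p = 0.0572) and fell by 0.57 in shControl cells (limma adjusted p = 0.0358). In GENCODE v29, 39.1% of the exon bases of TYMS overlap ENOSF1 on the opposite strand, and 37.1% of those of CCNE2 overlap INTS8. Reads of such pairs cannot be told apart without strand, and whether strand was used in counting is not given in the sources used here, so both genes' values are uncertain.

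Of the G1/S regulators, 2 of 4 fell with either shRNA, 1 of each gene pair. Summed, they had 0.913 of the dish level in shL1CAM cells on slice and 0.725 in shControl cells, whereas nucleotide supply had 0.538 and 0.481 (ratios of summed normalized counts). CCNE2, one of the cyclins E, had 636 and 418 normalized counts in shL1CAM cells and 514 and 431 in shControl cells on slice, against 856 and 1022 in shL1CAM cells and 1070 and 822 in shControl cells in the dish, and fell by 0.86 ± 0.23 and 0.99 ± 0.23 (log2, limma adjusted p = 0.0316 and 0.025). CCNE1, the other cyclin E, had 648 and 840 normalized counts in shL1CAM cells and 521 and 514 in shControl cells on slice, against 471 and 597 in shL1CAM cells and 605 and 442 in shControl cells in the dish. In shL1CAM cells both slice libraries lay above both dish libraries, and in shControl cells they overlapped. CCNE1 did not pass the test with either shRNA (log2 fold change 0.48 ± 0.21 and -0.00 ± 0.21, limma adjusted p = 0.135 and 0.999). Over 16 alternative fits, with other settings or 1 library left out, it ran from 0.29 to 0.66 in shL1CAM cells. In shControl cells it ran from -0.23 to 0.22.

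E2F1 and E2F2, both activating E2F factors, also had unlike values. E2F1 had 799 and 841 normalized counts in shL1CAM cells and 600 and 553 in shControl cells on slice, against 636 and 690 in shL1CAM cells and 637 and 622 in shControl cells in the dish. Slice lay above dish in shL1CAM cells and below it in shControl cells, without overlap in either. Neither difference passed the test (0.31 ± 0.14 and -0.13 ± 0.14, limma adjusted p = 0.147 and 0.576). Over the same 16 alternative fits the log2 fold change of E2F1 ran from 0.25 to 0.37 and from -0.19 to -0.07. E2F2 had 298 and 286 normalized counts in shL1CAM cells and 347 and 332 in shControl cells on slice, against 422 and 527 in shL1CAM cells and 594 and 469 in shControl cells in the dish. It fell with either shRNA, by 0.69 ± 0.18 and 0.64 ± 0.18 (limma adjusted p = 0.028 and 0.0472), to levels below every dish library.

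**Figure D2:**
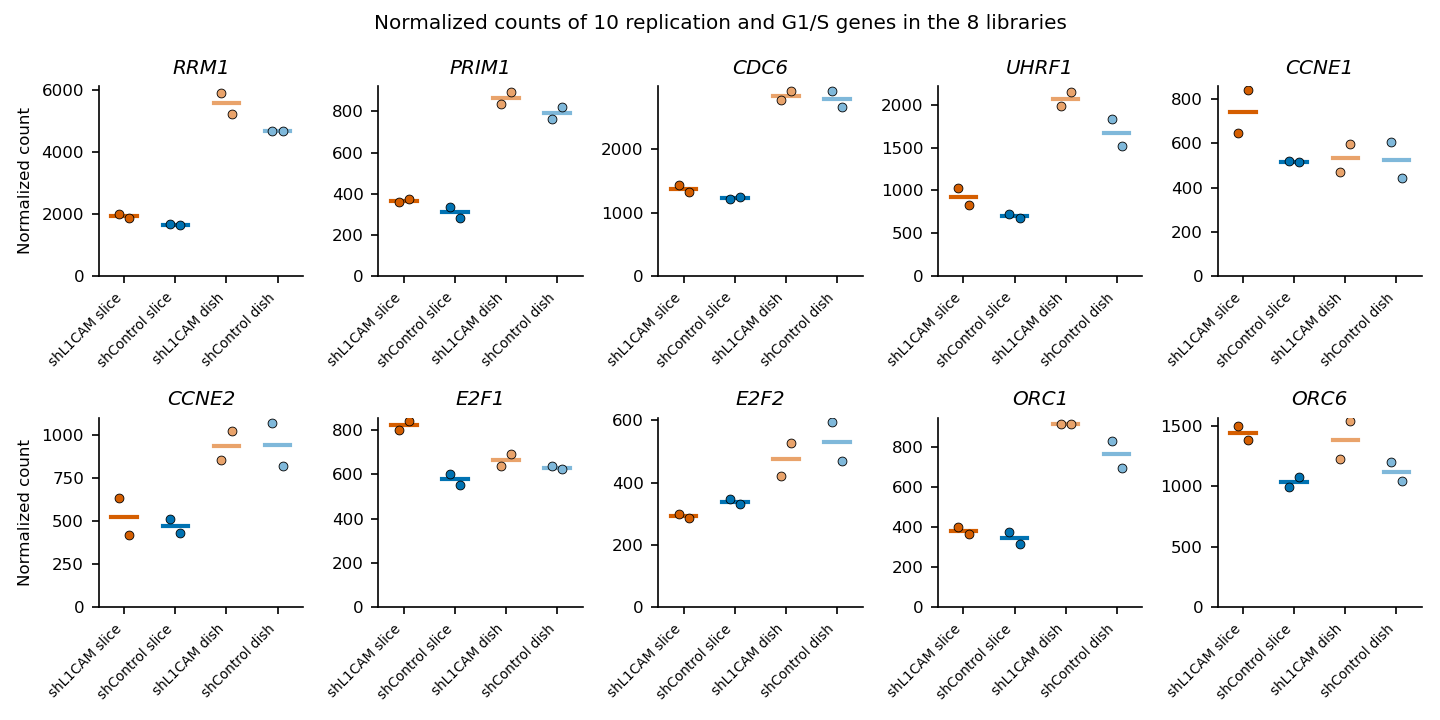
Normalized counts (linear axis from 0) of 10 genes in the 4 groups (shL1CAM slice, shControl slice, shL1CAM dish, shControl dish), with points for the 2 libraries and bars for their mean. RRM1, PRIM1, CDC6, UHRF1, CCNE2, E2F2 and ORC1 are lower on slice, while CCNE1, E2F1 and ORC6 are at or near their dish level in shControl cells.

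Of the 4 genes of chromatin assembly and histone supply, 2 fell in shL1CAM cells and 3 in shControl cells. The medians were -0.57 and -0.77, and -0.65 and -0.77 without replicate 2 of shL1CAM on slice. UHRF1, which brings maintenance methylation to newly copied DNA, had 1024 and 832 normalized counts in shL1CAM cells and 721 and 682 in shControl cells on slice, against 1989 and 2151 in shL1CAM cells and 1840 and 1518 in shControl cells in the dish. The groups were far apart (log2 fold change -1.16 ± 0.16 and -1.25 ± 0.16, limma adjusted p = 0.00337 and 0.00396). The CAF-1 subunits, which place histones on new DNA, both had lower levels on slice. CHAF1B had 375 and 411 normalized counts in shL1CAM cells and 311 and 339 in shControl cells on slice, against 614 and 644 in shL1CAM cells and 678 and 624 in shControl cells in the dish, and fell by 0.68 and 1.00 (limma adjusted p = 0.0156 and 0.00585).

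CHAF1A had 720 and 826 normalized counts in shL1CAM cells and 597 and 557 in shControl cells on slice, against 1073 and 1035 in shL1CAM cells and 878 and 805 in shControl cells in the dish. Its values did not overlap between slice and dish within either shRNA, and it was at -0.45 in shL1CAM cells (limma adjusted p = 0.0564) and fell by 0.54 in shControl cells (limma adjusted p = 0.0386). SLBP, the protein that binds the stem-loop of histone mRNA, was at -0.31 and -0.36 and did not pass the test.

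Across the steps, 26 members fell with either shRNA, 18 of which did not pass in shL1CAM cells in the fit of the 4 shL1CAM libraries alone. A further 8 passed the test in shControl cells and not in shL1CAM cells (CDT1, MCM5, POLA2, POLD1, PCNA, TYMS, TK1 and CHAF1A). The interaction test called a difference in slice effect between the shRNAs for none of the 42 (smallest limma adjusted p = 0.97). It called none of the tested genes either, so an equal slice effect is not shown. The remaining 8 passed in neither (ORC6, GINS2, GINS3, RFC2, RPA2, CCNE1, E2F1 and SLBP). The median interaction was 0.13 (log2), 0 members were called at the threshold against 0% of all tested genes, 0 had an unadjusted p under 0.05, and edgeR and DESeq2 on the recovered reads also called 0. The 3 members with the smallest p were E2F1 (0.44 ± 0.20), CCNE1 (0.48 ± 0.30) and GINS2 (0.52 ± 0.33), all in the direction of a higher slice to dish ratio in shL1CAM cells.

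Other genes of the same pathway, taken from 5 lists of known components, were lower on slice in part. Of 68 tested, 25 fell and 3 rose in shL1CAM cells, where 11.2% of all tested genes were lower and 10.1% higher. In shControl cells 24 fell and 2 rose, where 8.03% of all tested genes were lower and 6.8% higher. The medians of the 68 were -0.35 and -0.46. Without replicate 2 of shL1CAM on slice, more of the 68 passed in either direction, as did more of all tested genes. The medians of the 68 were then -0.40 in shL1CAM cells and -0.46 in shControl cells. Among 13 other origin and licensing genes 9 and 7 fell and 0 rose, including GMNN, the inhibitor of CDT1 (-0.82 and -0.97), GINS4, the fourth GINS subunit (-1.23 and -1.07), and the fork factor WDHD1 (-1.45 and -1.16). Among 19 other polymerase and fork genes 8 and 10 fell and 0 rose, including PRIM2, the partner of PRIM1 (-1.17 and -1.12), RPA1, the large subunit of the single-strand binding complex (-1.02 and -0.85) and the fork protection factor TIMELESS (-0.92 and -0.84). Of 7 other chromatin assembly genes 3 and 3 fell, namely DNMT1, the maintenance methyltransferase (-1.10 and -0.82), the ATPase ATAD2 (-1.77 and -1.34) and the chromatin remodeller HELLS (-0.77 and -0.57). Without replicate 2 of shL1CAM on slice the medians were -0.55 and -0.59 in the origin and licensing list. They were -0.62 and -0.84 in the polymerase and fork list and -0.47 and -0.51 in the chromatin list.

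The other 2 lists were mixed. Of 10 other nucleotide supply genes 0 passed the test in shL1CAM cells (3 had an unadjusted p under 0.05), and in shControl cells the dUTPase DUT fell by 0.61 while TK2, the mitochondrial thymidine kinase, rose by 0.54. SHMT1, which supplies one-carbon units, did not pass (-0.31 and -0.57). With replicate 2 of shL1CAM on slice left out, more of these 10 passed in either direction, as did more of all tested genes. The median of these 10 was -0.32 in shL1CAM cells, against -0.17 with that library, and -0.27 in shControl cells. Of 19 other E2F, RB and CDK2 genes, 5 fell and 3 rose in shL1CAM cells and 3 fell and 1 rose in shControl cells. Of all tested genes, 11.2% were lower and 10.1% higher in shL1CAM cells, and 8.03% and 6.8% in shControl cells. Without that library more of the 19 passed in either direction, as did more of all tested genes. The median of the 19 was 0.10 in shL1CAM cells, against -0.22 with that library, and 0.04 in shControl cells. Cyclin A2 (CCNA2, the cyclin of S phase) fell by 1.16 and 1.22 and the phosphatase CDC25A by 0.75 and 0.93, while E2F5, a repressive E2F factor, rose by 0.51 and 0.67. For comparison, of 20 genes of G2 and mitosis 19 fell in shL1CAM cells and 20 in shControl cells, with medians of -1.33 and -1.18. Without that library the medians were -1.155 and -1.181. The G2 and mitosis genes with the smallest p in shControl cells were TPX2 (-1.65 and -1.58), NDC80 (-1.39 and -1.43) and HMMR (-2.34 and -1.89). The difference between this list's median and the members' median was not tested.

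Between shL1CAM and shControl cells no replication gene passed the test in either culture. On slice, 0 of 42 members passed the test between shL1CAM and shControl cells, where 0.646% of tested genes did, although 17 had an unadjusted p under 0.05. edgeR on the recovered reads called 0 and DESeq2 called 1 (GINS2, higher). The members' median log2 fold change was 0.29 (range -0.22 to 0.84), against -0.00 over all tested genes. Both shL1CAM libraries lay above both shControl libraries for 31 members (26% of tested genes) and below them for 1 (24.1% of tested genes), which was E2F2. The members with the smallest p were E2F1 (0.51 ± 0.14) and GINS2 (0.84 ± 0.23), followed by RPA2 (0.44 ± 0.15), with limma adjusted p of 0.161, 0.161 and 0.212. Without replicate 2 of shL1CAM on slice 2 members rose (E2F1 and UHRF1; 4.67% of tested genes were called in either direction). Without replicate 1 of shL1CAM, when replicate 2 stands alone for its group, 22 rose and 1 fell and 53.0% of all tested genes were called, and the interaction then called 10 members and 31.8% of tested genes.

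In the dish, 0 of 42 members passed, against 0.307% of tested genes, and 1 had an unadjusted p under 0.05. edgeR and DESeq2 called 0. The median was 0.17 (range -0.16 to 0.37), against 0.01 over all tested genes, and both shL1CAM libraries lay above both shControl libraries for 24 members (25.7% of tested genes) and below them for 0 (25.6% of tested genes). MCM3, the subunit with the smallest p, had 4012 and 3649 normalized counts in shL1CAM cells against 3100 and 2810 in shControl cells in the dish, and 2137 and 2328 against 1805 and 1761 on slice. The log2 fold change was 0.37 ± 0.14 in the dish (limma adjusted p = 0.414), and CHAF1A (0.32 ± 0.15) and RPA2 (0.32 ± 0.15) came next. Without replicate 1 or 2 of shL1CAM on slice, MCM3, RPA2 and CHAF1A rose in the dish, with 11.04% and 11.05% of tested genes called. Of the other pathway genes, 1 of 68 passed on slice and in the dish, and it was named after its values were seen. This was CDKN1A, the CDK inhibitor p21, with 543 and 600 normalized counts in shL1CAM cells against 1389 and 1449 in shControl cells on slice and 332 and 397 against 1092 and 904 in the dish. It fell by 1.31 ± 0.16 on slice and by 1.45 ± 0.16 in the dish (limma adjusted p = 0.0201 and 0.017). Leaving out replicate 2 of shL1CAM on slice, the median of the 68 was 0.12 on slice and 0.10 in the dish. Over all tested genes it was then 0.01 in both.

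**Figure D3:**
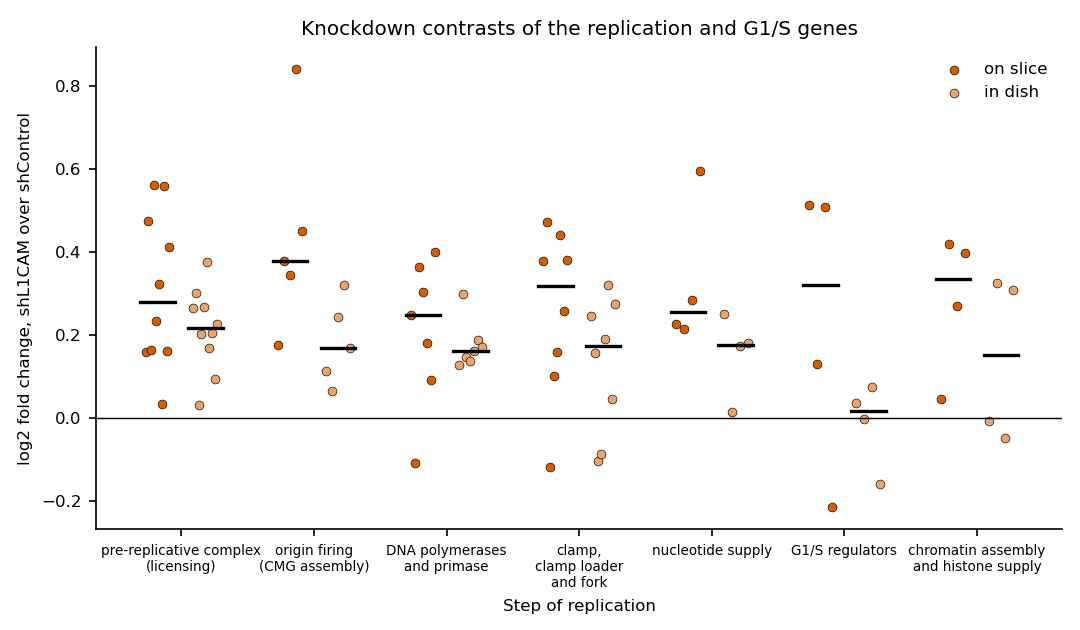
log2 fold change of shL1CAM over shControl for each of the 42 genes, by step of replication, on slice (dark orange, left) and in the dish (light orange, right), with black bars for the medians. Most points lie between 0 and 0.6, GINS2 on slice is highest at 0.84, and none of the points passed the test across all genes.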

How the data were processed

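Ribosome-bound mRNA of 8 libraries, 2 in each of 4 groups, was sequenced from TruSeq RNA v2 libraries, per the labels' protocols. The deposited signal is a normalized count per gene: the authors divided read counts by 1 size factor per library. Tools named in the submitters' processing notes are HTSeq 0.5.4, FastQC 0.11.3 and DESeq2, with builds GRCh37 and hg19. No source used here gives the aligner, annotation or strand setting. All values (100% in each library, within 1e-06) were whole multiples of 1 read, so read counts were recovered, and size factors recomputed with DESeq2 matched those of the table. A count of 3 reads equals 2.75 to 3.57 normalized counts.

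Genes with a mean of at least 10 (13010 of 23368, all 42 members among them) were tested with limma 3.58.1 in R 4.3.3 on log2(normalized count + 1), with 4 group means, an intensity trend and Benjamini-Hochberg adjustment over all tested genes. Contrasts were slice against dish for each shRNA, shL1CAM against shControl in each culture, and their interaction. Contrasts share libraries and are not independent. The p-values measure only the spread between these samples. The fit was checked on simulated counts. Alternatives were a pseudocount of 10, no filter, a replicate block, TMM scaling, a fit restricted to the 4 libraries of a contrast, edgeR 4.0.16 and DESeq2 1.42.0 on recovered reads, removal of a trend with transcript length, and each library left out in turn. Per kb levels used the longest APPRIS principal transcript of GENCODE v29. Promoters were from RefSeq on GRCh38.p14, a build other than that of the reads, and were matched by symbol.

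The members and the gene lists were chosen with earlier results of these data known. Values in every library are given for up to 3 members of a step with the smallest p in slice against dish of shControl cells, for the 3 members with the smallest p in each knockdown contrast where none passed, and for the 3 with the smallest change. POLA1, MCM5 and CDT1 were added for the spread of their replicates after their values were seen. One of the brain marker genes considered is not reported here, and the other markers are.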

Additional observations from a re-analysis of the deposited data

How the results depend on the processing

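The counts of members called, 26 lower in shL1CAM cells and 34 in shControl cells for slice against dish, stayed within 1.5 times of these values under a pseudocount of 10, no filter, TMM scaling, edgeR, DESeq2 and removal of the length trend. In a fit restricted to the 4 libraries of the contrast the shL1CAM count was 8, and DESeq2 called 1 member between shL1CAM and shControl on slice. With 1 library left out, which leaves a group with 1 library that is assumed to vary like the others, the counts ran from 9 to 36 and from 0 to 39 for slice against dish of shL1CAM and shControl cells, from 0 to 23 and from 0 to 3 for knockdown on slice and in the dish, and from 0 to 10 for the interaction. The medians ran from -0.73 to -0.62, -0.90 to -0.74, 0.24 to 0.34, 0.11 to 0.24 and 0.07 to 0.18 in the same order. In each of these contrasts the share of all tested genes called also moved widely over the same fits, so the swings in counts were not particular to the members. The cause of the shifts in counts and medians was not tested. With replicate number as a block the counts were 26 and 29 for slice against dish and 0 in the 3 others. Nothing in the labels pairs the numbers, and the correlation of replicate differences between groups ran from -0.377 to 0.194. With 2 libraries a group, a difference that misses the threshold is not shown to be absent.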
